A study of Mus musculus with 2 samples.

Results

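Potassium channel genes were read out in single nuclei of the spinal dynorphin lineage, cells in which the gene for prodynorphin (Pdyn), from which the opioid dynorphin is cut, had been active at any stage. The genes were chosen by symbol: every symbol in the count matrix that begins with Kcn and a letter of the channel families a, b, c, d, e, f, g, h, i, j, k, m, n, q, s, t, u or v, without antisense symbols ending in os, Rik symbols and Gm symbols, and with at least 20 UMIs (unique molecular identifiers, each 1 counted RNA molecule) in all. Of 84 matching symbols, 79 passed, among 19575 genes in the matrix. By that rule 77 were channel or channel-partner genes and 2 were noncoding transcripts named after a channel, Kcnq1ot1 and Kcnmb4os2. The symbols below the limit were Kcne1l and Kcnmb4os1 with 6 UMIs each, Kcnk5 and Kcnk18 with 11 each and Kcne2 with 16. Just inside it stood Kcnmb3 with 23 UMIs and Kcng4 and Kcnn4 with 27 each. No Kcne gene, which encode small auxiliary subunits, passed the limit.

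All mice carried Pdyn-IRES-Cre(+/-) and R26-LSL-Sun1.eGFP(+/-), so that Cre made under the Pdyn gene turned on a green fluorescent nuclear-envelope protein, and nuclei were sorted on that fluorescence from dorsal lumbar cord (L3-L5). The naive library pooled 8 adult littermate controls that had only isoflurane at postnatal day 3, and the injured library pooled 8 adults whose left hindpaw sole had been incised at that age; both sexes were pooled. Because Cre marks lineage, a labelled nucleus need not express Pdyn in the adult. Each group was 1 library, so differences between the groups have no replicate check and no test; all intervals are 95% and cover counting error only, not the spread between mice.

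Potassium channels let potassium leave the cell, which sets the resting potential, ends the action potential and limits repetitive firing. The Kcna, Kcnb, Kcnc, Kcnd, Kcnh and Kcnq families open on depolarisation, the Kcnm, Kcnn and Kcnt families respond to intracellular calcium or sodium, the Kcnj family rectifies inward, and the Kcnk family carries leak current. In the dorsal horn, A-type current through Kcnd channels and their Kcnip and Dpp partners delays firing, and channels built from Kcnj3, Kcnj5, Kcnj6 and Kcnj9 open when opioid receptors release G protein subunits.

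The naive library held 4063 nuclei with a median of 6955 UMIs and the injured library 3547 nuclei with a median of 8464; 3 cell barcodes occurred in both. Classes were rebuilt from clusters and marker genes, carry the suffix "-like", and need not match the study's own. Inhibitory-like neurons (GABA and glycine genes) made up 2710 naive and 2301 injured nuclei, and excitatory-like neurons (Slc17a6) 713 and 628. CSF-contacting-like neurons (Pkd2l1 and Pkd1l2, markers of cells that touch the cerebrospinal fluid) numbered 106 and 48. Glia-like classes were small: 27 and 24 astrocyte-like, 22 and 14 ependymal-like and 42 and 45 oligodendrocyte-like nuclei, with 433 and 477 nuclei left unnamed. The 6 inhibitory markers summed to 968 and 925 CPM (UMIs scaled to a class total of 1000000) in inhibitory-like nuclei and to 144 and 195 CPM in oligodendrocyte-like nuclei. The 5 general neuron markers summed to 16531 and 17005 CPM in inhibitory-like nuclei, 394 and 260 CPM in oligodendrocyte-like nuclei, and 4956 and 8173 CPM in astrocyte-like nuclei. RNA of neuron markers was thus present in glia-like nuclei, most of all in the astrocyte-like ones.

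The 79 genes held 2.54% of all UMIs, and 1.37% without Kcnip4. Their summed share was 2.98% of UMIs in naive inhibitory-like nuclei (2.97 to 2.99) and 3.11% in injured ones (3.10 to 3.11). In excitatory-like nuclei it was 1.71% (1.70 to 1.72) and 1.83% (1.82 to 1.84). CSF-contacting-like nuclei lay between, at 2.17% (2.13 to 2.20) and 2.29% (2.24 to 2.34), and oligodendrocyte-like nuclei were lowest, at 0.275% (0.244 to 0.308) and 0.340% (0.311 to 0.373). Without Kcnip4 the gap between inhibitory-like and excitatory-like nuclei narrowed to 1.43% against 1.20% in the naive library and 1.51% against 1.29% in the injured one. CSF-contacting-like nuclei then no longer lay between but were lower than both, at 1.10% (1.07 to 1.13) and 1.22% (1.19 to 1.26). Counts were very uneven: 19 genes had over 10000 UMIs and 13 had under 100.

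By family, Kcnip genes gave 49.2% of the UMIs of all 79 genes, Kcnd 12.5%, Kcnq 5.69%, Kcnc 5.04%, Kcnb 4.64%, Kcnm 4.45%, Kcnt with Kcnu 4.40%, Kcnj 3.76%, Kcnh 3.45%, Kcnk 1.95%, Kcnn 1.09%, Kcnab 0.927% and Kcna 0.543%. The noncoding pair gave 2.14% and the electrically silent subunits (Kcnf, Kcng, Kcns and Kcnv) 0.184%. The gene with most UMIs in each family was Kcnip4, Kcnd2, Kcnq3, Kcnc2, Kcnb2, Kcnma1, Kcnt2, Kcnj3, Kcnh7, Kcnk2, Kcnn2, Kcnab1 and Kcna1, with Kcnq1ot1 and Kcng2 leading the last pair. These are counts of nuclear RNA from genes of 1.90 to 1135.4 kb, and long genes can give more; the sources used here do not say whether intronic reads were counted. Per kb of gene, Kcnip4 stayed first with 657 UMIs, but Kcna1, a gene of 5.99 kb, came next with 471, ahead of Kcnq1ot1 with 369, Kcnd2 with 348 and Kcnc2 with 345.

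**Figure D1:**
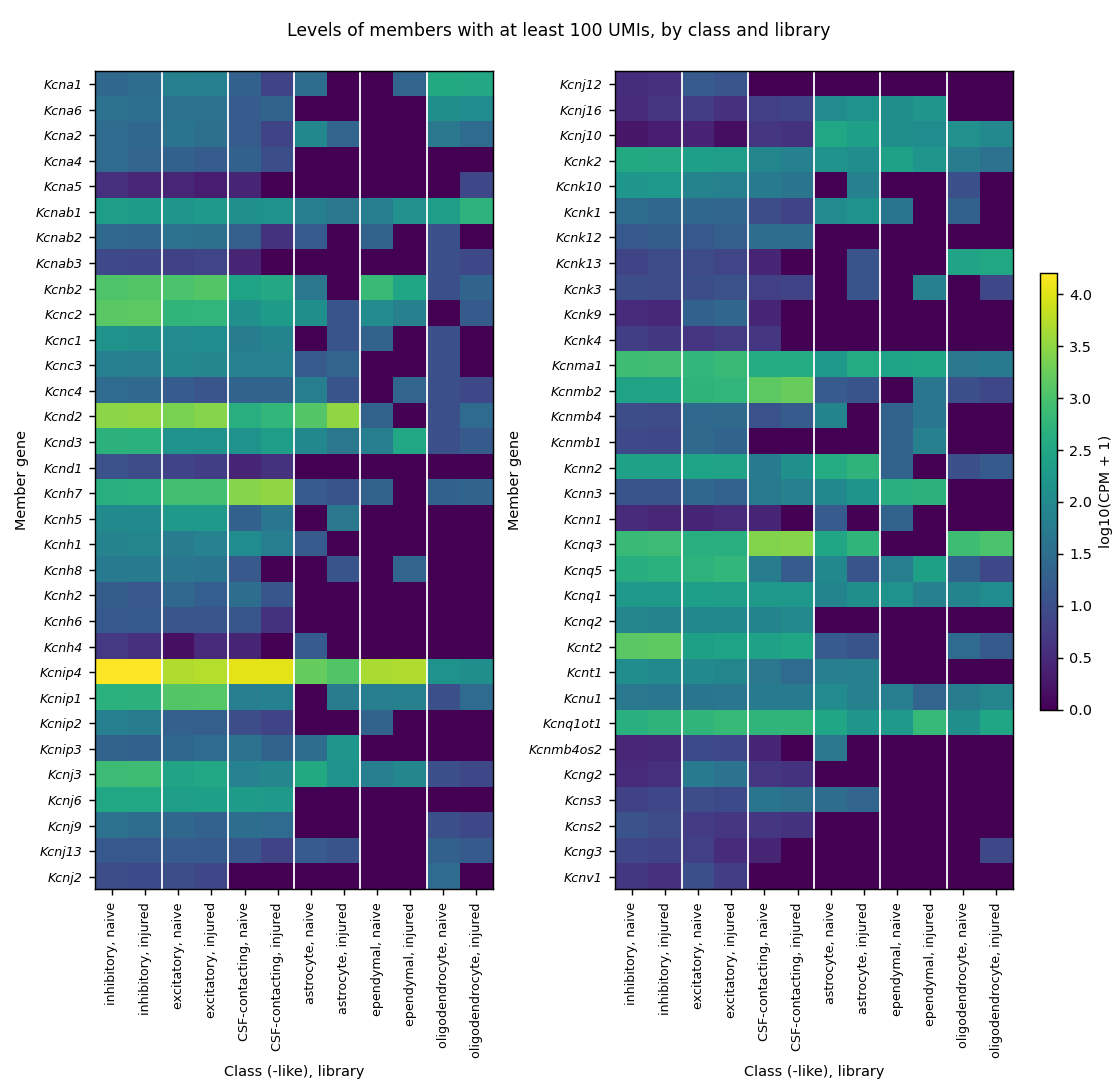
Levels of 64 genes with at least 100 UMIs (rows, grouped by family) in 6 classes and 2 libraries (columns), as log10(CPM + 1) by colour. Naive and injured columns of a class look alike in the neuron classes; Kcnip4 is the brightest row, Kcnh7 and Kcnq3 brighten in CSF-contacting-like nuclei, and Kcna1 and Kcnk13 in oligodendrocyte-like nuclei.

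Kcnip4 and Kcnd2, a partner and a pore gene of A-type current, held the most UMIs, while the other Kcnd and Kcnip genes were lower. Kcnd2, a pore subunit, had 2979.6 and 3218 CPM in naive and injured inhibitory-like nuclei, and 2304 and 2713 CPM in excitatory-like nuclei. Kcnd3, its closest relative, was at 496 and 486 CPM in inhibitory-like but 144 and 145 CPM in excitatory-like nuclei. Kcnip4 (chromosome 5, 48389502 to 49524907, minus strand, mm10), a calcium-binding partner of those pores, was at 15456 and 15973 CPM in inhibitory-like and 5119.8 and 5386 CPM in excitatory-like nuclei. Its excitatory over inhibitory ratio was 0.331 (0.328 to 0.335) in the naive and 0.337 (0.334 to 0.341) in the injured library. In oligodendrocyte-like nuclei Kcnip4 was at 144 and 123 CPM, but other glia-like classes had more. It held 0.461% and 0.499% of UMIs in naive and injured ependymal-like nuclei, against 0.512% and 0.539% in excitatory-like ones. In astrocyte-like nuclei its share was 0.162% and 0.117%. Kcnip2 leaned the same way as Kcnip4, at 65.2 and 59.6 CPM against 18.2 and 17.9 CPM. Kcnip1 leaned the other way, at 487 and 507 CPM in inhibitory-like against 1206 and 1251 CPM in excitatory-like nuclei, a ratio of 2.47 in both libraries (naive 2.40 to 2.55, injured 2.40 to 2.54). Kcnd2 was thus abundant in both neuron classes, while the Kcnip partners stood in different proportions. Kcnd RNA was not limited to neuron classes. The 3 Kcnd genes summed to 1270 and 3190 CPM in naive and injured astrocyte-like nuclei, beside 2455 and 2863 CPM in excitatory-like ones. They summed to 83.0 and 333 CPM in ependymal-like and 19.2 and 43.3 CPM in oligodendrocyte-like nuclei. The part of neuron RNA in these sums was not tested.

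Kcnip3 was singled out after its values were seen, because its product, also called DREAM, is known as a repressor of the Pdyn gene as well as a channel partner. It was at 20.5 and 19.4 CPM in inhibitory-like nuclei and 24.7 and 28.8 CPM in excitatory-like nuclei. The injured over naive ratio was 0.946 (0.820 to 1.09) in the first and 1.17 (0.944 to 1.45) in the second, so both intervals held 1. In excitatory-like nuclei the ratio was 0.922 (0.702 to 1.21) among those with Xist UMIs and no Y-linked UMIs, and 2.001 (1.32 to 3.09) among those with Y-linked UMIs and no Xist UMIs, which come from other mice of the pools.

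Across both libraries, 65 genes had enough UMIs to compare excitatory-like with inhibitory-like nuclei (at least 100 UMIs in the 2 classes together). Of these, 28 were higher in excitatory-like nuclei in both libraries, 29 higher in inhibitory-like nuclei in both, and 8 changed order between libraries. At 2-fold or more in both libraries, 9 were higher in excitatory-like nuclei, 13.8% of the 65, where 4.13% of all 13701 genes compared were. At the same limit 8 were higher in inhibitory-like nuclei, 12.3%, where 3.82% of all genes were. The classes come from clustering of the same nuclei, so these ratios are a description and carry no test. Of the 2000 variable genes used for clustering, 14 were among the 79; clustering without any of them left 7 and 8 genes past the limit.

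The widest gaps toward excitatory-like nuclei were in genes with low levels. Kcng2, a silent subunit that joins Kcnb pores, stood at 2.32 and 2.63 CPM in inhibitory-like and 53.2 and 39.2 CPM in excitatory-like nuclei, a ratio of 22.9 (16.8 to 31.99) in the naive and 14.9 (11.1 to 20.5) in the injured library. Kcnk9, an acid-sensitive leak channel, was at 2.17 and 1.97 CPM against 19.0 and 23.4 CPM, with ratios of 8.77 (6.14 to 12.8) and 11.9 (8.32 to 17.3). Kcnj12, a strong inward rectifier, had ratios of 5.88 (4.15 to 8.44) and 4.09 (2.89 to 5.82). Of the auxiliary subunits of the calcium-activated channel Kcnma1, 3 were on the excitatory-like side: Kcnmb1 at 3.70 and 3.02, Kcnmb4 at 2.92 and 3.33, and Kcnmb2 at 2.09 and 2.08. Kcnma1 itself differed less and in the opposite sense, with 802 and 834 CPM in inhibitory-like and 614 and 685 CPM in excitatory-like nuclei. Kcna1, a low-threshold channel of axons, had ratios of 2.75 (2.41 to 3.14) and 2.08 (1.84 to 2.35).

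Some of these symbols overlap in the genome, and the strand used for counting is not given in the sources used here. Kcnmb1 (chromosome 11, 33963013 to 33973641, plus strand) lies inside the span of Kcnip1 (33629339 to 33993152, minus strand), and both were higher in excitatory-like nuclei. Kcnmb4os2, with ratios of 4.21 and 3.499, overlaps the end of Kcnmb4 on the other strand, and Kcnq1ot1 lies within Kcnq1 on the other strand. Reads of such pairs could not be told apart without strand, so their values are uncertain.

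On the inhibitory-like side, Kcnt2, a sodium-activated channel, had the widest gap: 1342 and 1423 CPM against 248 and 274 CPM, which is 5.41 times (5.15 to 5.69) as high in the naive and 5.19 times (4.96 to 5.44) in the injured library. Kcnip2 was 3.58 and 3.34 times, Kcnd3 3.44 and 3.35 times and Kcnip4 3.02 and 2.97 times as high in inhibitory-like nuclei. Kcnj3, a G protein-gated inward rectifier, was at 752 and 797 CPM against 279.7 and 323 CPM, 2.69 and 2.46 times as high. Kcnc2, of the family that repolarises fast-spiking neurons, was 2.36 and 2.42 times as high, Kcnk10, a mechanically gated leak channel, 2.21 and 2.44 times, and Kcns2, a silent subunit, 2.49 and 2.38 times. Kcnh4 also ranked among the lowest ratios, but on 3 and 15 excitatory-like UMIs, and it did not reach the limit in both libraries.

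**Figure D2:**
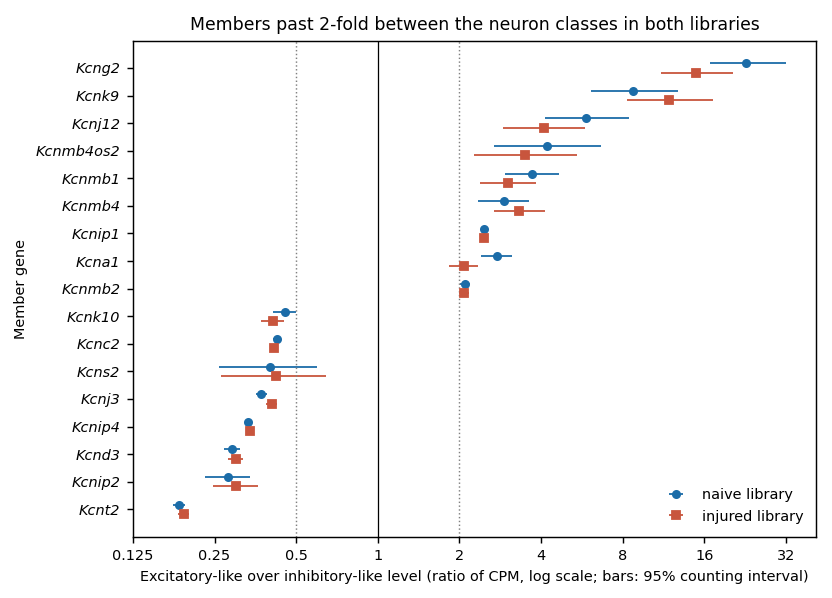
Ratio of the excitatory-like to the inhibitory-like level (x axis, log scale) for the 17 genes past 2-fold in both libraries (y axis), with 95% counting intervals; circles are the naive and squares the injured library, dotted lines mark 2-fold. The libraries lie close together for most genes, but the intervals of Kcna1 are apart, at 2.75 (2.41 to 3.14) and 2.08 (1.84 to 2.35). Kcng2 is highest at 22.9 and 14.9 and Kcnt2 lowest at 0.185 and 0.193.

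The other subunits of G protein-gated channels were less uneven. Kcnj6 was at 331 and 327 CPM in inhibitory-like and 224 and 238 CPM in excitatory-like nuclei. Kcnj9 was at 36.7 and 29.7 CPM against 25.1 and 20.3 CPM. Kcnj5 had 83 UMIs in all nuclei, but was among the 10 leading genes of inhibitory-like cluster 11. Among the 3 neuron classes, 26 of the 65 genes were highest in inhibitory-like nuclei in both libraries, 20 in excitatory-like nuclei and 10 in CSF-contacting-like nuclei, and the other 9 had a different highest class in the 2 libraries. The highest class was not counted for all genes, so these numbers have no background.

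CSF-contacting-like nuclei had 7 genes above both other neuron classes with counting intervals apart in both libraries, where 3.58% of all genes met that rule. Kcnh7, an ERG-type channel that opens on recovery from inactivation, was at 2753 and 3182 CPM, against 430 and 486 CPM in inhibitory-like and 847 and 866 CPM in excitatory-like nuclei. Kcnq3, a subunit of the muscarine-sensitive M-current, was at 2589.8 and 2733 CPM, against 688 and 748 CPM and 443 and 452 CPM. Kcnmb2 was at 1395 and 1652 CPM, Kcnn3 at 49.7 and 66.0 CPM and Kcns3 at 42.6 and 34.6 CPM. Kcnn3 and Kcns3 were not particular to this class. In inhibitory-like cluster 13, Kcnn3 was at 60.6 CPM in naive and 54.6 CPM in injured nuclei, and Kcns3 at 42.5 and 41.0 CPM. Kcnd2 was low in this class, at 442 and 597 CPM, while its partner Kcnip4 was at 10663 and 10676 CPM.

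Kcnj10 (chromosome 1), the main inward rectifier by which astrocytes clear potassium, reached 336 CPM (211 to 509) in naive and 238 CPM (148 to 364) in injured astrocyte-like nuclei, on 22 and 21 UMIs. It was at 0.826 and 1.06 CPM in inhibitory-like and 1.53 and 0.433 CPM in excitatory-like nuclei. Its partner Kcnj16 was at 107 and 136 CPM in astrocyte-like and 124 and 155 CPM in ependymal-like nuclei, and had no UMI in oligodendrocyte-like nuclei, which allows up to 28.8 and 21.6 CPM. Kcnj10 was also above the neuron classes in ependymal-like nuclei, at 124 and 111 CPM, and in oligodendrocyte-like nuclei, at 134 and 93.8 CPM. Kcnn3, a small-conductance calcium-activated channel, was at 456 and 510 CPM in ependymal-like nuclei, where Kcnd2 had 1 and 0 UMIs. Kcnn3 and Kcnk1, a weakly rectifying leak channel, were also higher in astrocyte-like nuclei, at 91.8 and 148 CPM and at 107 and 136 CPM.

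In oligodendrocyte-like nuclei, Kcna1 reached 355 CPM (250.3 to 490) in the naive library, and in the injured one 339 CPM (249 to 451), against 24.6 and 31.3 CPM in inhibitory-like and 67.6 and 65.0 CPM in excitatory-like nuclei. Its neighbour on chromosome 6, Kcna6, was at 125 and 108 CPM. Kcnk13, a leak channel, reached 288 CPM (194 to 411) in naive nuclei, 332 CPM (243 to 443) in injured ones, and did not exceed 8.28 CPM in the 2 larger neuron classes. Counting each class, 4 of the 79 genes met the rule in astrocyte-like, 3 in ependymal-like and 4 in oligodendrocyte-like nuclei. Of all genes, 3.72%, 4.08% and 4.52% did, so these counts are near that background. In sum 7 different genes were involved, and the like number was not counted over all genes. With nuclei thinned to 4000 UMIs and shallower ones left out, 2 genes met the rule, but only 1 and 8 astrocyte-like, 1 and 3 ependymal-like and 3 and 8 oligodendrocyte-like nuclei were then left.

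Within the neurons, levels were compared over 18 whole clusters with at least 25 nuclei in each library, for 60 genes with at least 200 UMIs there. The highest cluster was the same in both libraries for 37 genes: 24 had it among inhibitory-like, 8 among excitatory-like clusters and 5 in the CSF-contacting-like cluster. Most of the 18 clusters were inhibitory-like, and the same count was not made for all genes, so this split has no background. The clusters were made from these nuclei, so the values are a description.

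Kcnip4 ranged widely. It was highest in cluster 3, with 27101 CPM for naive and 31008 CPM for injured nuclei, near cluster 5 with 25104 and 29221 CPM, and lowest in cluster 16, with 625 and 1195 CPM. Both ends of that range were inhibitory-like. Cluster 16, led by Atp10a, Rasgrp4 and Crabp1, was instead the highest for the elk-type channel Kcnh8, at 319 and 385 CPM against a median cluster of 18.6 and 19.7 CPM. Kcnip2 was also highest in cluster 16, at 272 and 247 CPM, and so was Kcnab3, an auxiliary subunit, at 35.9 and 34.6 CPM. For Kcnh8, cluster 8 came close, at 276 and 307 CPM. Kcnt2 had the reverse pattern, with 2351 and 2718 CPM in cluster 0, led by Cartpt, and its lowest level, 50.6 and 118 CPM, in cluster 16.

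Kcnq5, an M-current subunit, was highest in cluster 12, led by Nxph2, at 1709 and 1999 CPM, with a median cluster of 358 and 409 CPM. In naive nuclei its lowest level was 27.2 CPM in cluster 1, and in injured nuclei 15.7 CPM in cluster 17. Kcnk13 reached 47.8 and 52.0 CPM in cluster 11, led by Tac2, against a median of 3.66 and 4.46 CPM. Kcnmb4 reached 93.8 and 113 CPM in excitatory-like cluster 18, led by Th, whose 10 leading genes also included Kcnmb4os2. Kcnh7 and Kcnq3 had their highest level in cluster 17, the CSF-contacting-like nuclei described above. Kcng2 and Kcnk9 were highest in excitatory-like clusters 18 and 9 in both libraries, with the order of the 2 clusters exchanged.

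**Figure D3:**
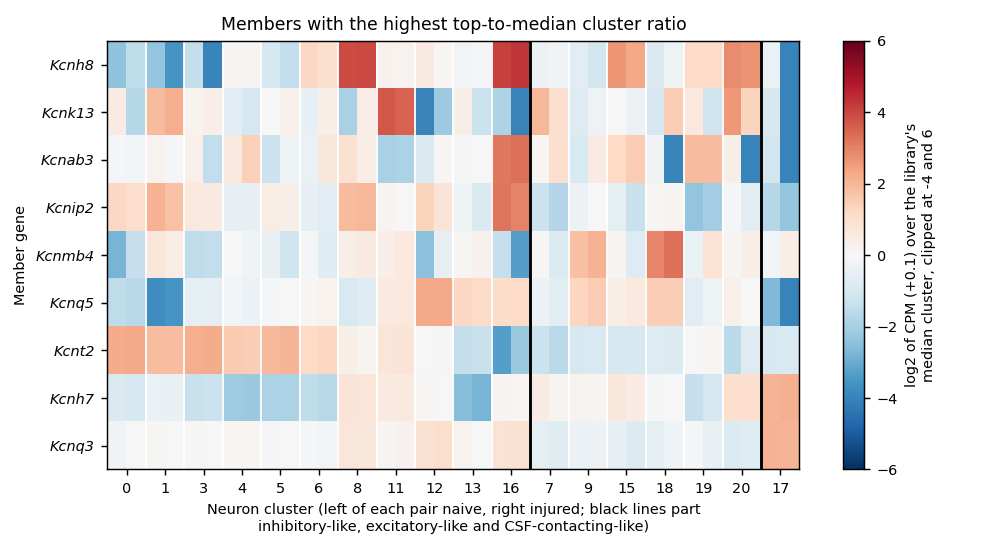
Levels of 9 genes (rows) in 18 neuron clusters (pairs of columns, naive left and injured right), as log2 of CPM + 0.1 over the library's median cluster, clipped at -4 and 6. Paired columns have like colours for most genes; Kcnh7 and Kcnq3 stand out in cluster 17, Kcnh8 in clusters 8 and 16, and Kcnt2 in clusters 0, 1, 3, 4 and 5.

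Between the libraries, the genes differed little. In inhibitory-like nuclei 59 of the 79 had at least 100 UMIs and were compared, and 20 did not. The injured over naive ratio of CPM was above 1 for 25 and below 1 for 34, and its median log2 was -0.03, where the median of all 12934 genes compared was -0.08. When ratios were centred on that median, 34 were above and 25 below. By 1.5-fold, 1 gene was higher and 0 lower, where 0.394% of all genes were higher and 2.16% lower. The counting interval lay above 1 for 19 genes and below 1 for 12, where it did so for 7.64% and 25.1% of all genes. Intervals narrow as UMIs increase, and all genes were not matched to these by UMIs. Counts of intervals beside all genes are therefore not like for like, here and in the other classes below.

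The 1 gene past the limit in inhibitory-like nuclei was Kcnj16 (chromosome 11, 110968033 to 111027968, plus strand), the glial inward rectifier, with 44 UMIs in naive and 70 in injured nuclei, or 2.27 and 3.53 CPM, a ratio of 1.56 (1.05 to 2.32). In excitatory-like nuclei it was at 4.75 and 3.03 CPM, on 31 and 21 UMIs. The next highest ratios were Kcnk13 at 1.29 (1.02 to 1.65) and Kcna1 at 1.27 (1.13 to 1.44). All 3 were among the genes higher in glia-like nuclei. Nuclei with at least 2 UMIs of the astrocyte and oligodendrocyte markers made up 29.7% of naive and 34.7% of injured inhibitory-like nuclei, while the summed level of those markers was 53.9 and 52.3 CPM for the 8 astrocyte genes and 113 and 113 CPM for the 8 oligodendrocyte genes, all 16 with UMIs in both libraries. Among nuclei with Xist UMIs and no Y-linked UMIs, which come from other mice of the pools than those with Y-linked UMIs and no Xist UMIs, the Kcnj16 ratio was 1.66 (1.01 to 2.79), and in the latter 1.64 (0.777 to 3.63). Without the nuclei with glia marker UMIs the ratio was 1.43 (0.915 to 2.25) for Kcnj16, 1.30 (0.954 to 1.77) for Kcnk13 and 1.26 (1.10 to 1.45) for Kcna1. The part of glial RNA in these ratios was not tested further.

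Kcns3, a silent subunit, had 5.42 and 6.82 CPM, a ratio of 1.26 (0.967 to 1.64), and Kcnk12, a leak channel, 13.4 and 16.3 CPM, a ratio of 1.21 (1.03 to 1.43). When each cluster entered both libraries with its mean share of the class UMIs, log2 ratios were -0.02 for Kcna1 and -0.05 for Kcns3, instead of 0.35 and 0.33; for Kcnj16 it was 0.49 instead of 0.64, no longer past 1.5-fold. The lowest ratios were Kcnh4 at 0.746 (0.521 to 1.06), Kcnv1 at 0.753 (0.524 to 1.08), Kcnk4 at 0.756 (0.552 to 1.03), Kcnh2 at 0.769 (0.649 to 0.910) and Kcna4 at 0.795 (0.699 to 0.903). The interval of the last pair lay below 1. Kcna4 makes A-type current in axons and was at 28.1 and 22.3 CPM.

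Excitatory-like nuclei had 53 genes to compare, 27 above and 26 below 1, with a median log2 of 0.01, where the 10474 genes compared had -0.07. Centred on that median, 33 were above and 20 below. By 1.5-fold, 0 were higher and 1 lower, where 0.172% and 2.51% of all genes were. The interval lay above 1 for 13 genes and below 1 for 5, where it did so for 5.91% and 15% of all genes.

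The 1 lower gene was Kcnh2 (chromosome 5, 24319589 to 24351604, minus strand), the ERG channel best known from the heart, with 26.7 and 17.2 CPM in naive and injured excitatory-like nuclei, on 174 and 119 UMIs, a ratio of 0.643 (0.505 to 0.817). In inhibitory-like nuclei it was at 16.4 and 12.6 CPM. The pools held both sexes, and nuclei were also read by the sex of their RNA: among nuclei with Xist UMIs and no Y-linked UMIs the Kcnh2 ratio in excitatory-like nuclei was 0.641 (0.480 to 0.853), and among those with Y-linked UMIs and no Xist UMIs 0.770 (0.442 to 1.33). Relative to genes of like length its log2 ratio was -0.54 in place of -0.64, which no longer reached 1.5-fold. The ratios nearest to it were Kcng2 at 0.737 (0.627 to 0.866), Kcnc4 at 0.765 (0.566 to 1.03), Kcnj2 at 0.778 (0.520 to 1.16) and Kcnmb1 at 0.786 (0.628 to 0.984). Kcng2, the gene most tilted to excitatory-like nuclei, thus stood at 53.2 CPM in naive and 39.2 CPM in injured ones.

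The highest ratio in excitatory-like nuclei was that of Kcnk12, with 13.2 and 18.0 CPM, 1.37 (1.03 to 1.82). Kcnk9 had a ratio of 1.23 (0.966 to 1.56) and Kcnh1, an EAG-type channel, 1.22 (1.07 to 1.40). Kcnq5 had 521 and 616 CPM, or 1.18 times the naive level (1.13 to 1.24). In inhibitory-like nuclei Kcnq5 had 418 and 490.3 CPM, or 1.17 times (1.14 to 1.21). Kcnd2 had a ratio of 1.18 (1.15 to 1.20) in excitatory-like and 1.08 (1.07 to 1.09) in inhibitory-like nuclei. These intervals are narrow because the genes had many UMIs, and they hold no variation between mice.

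**Figure D4:**
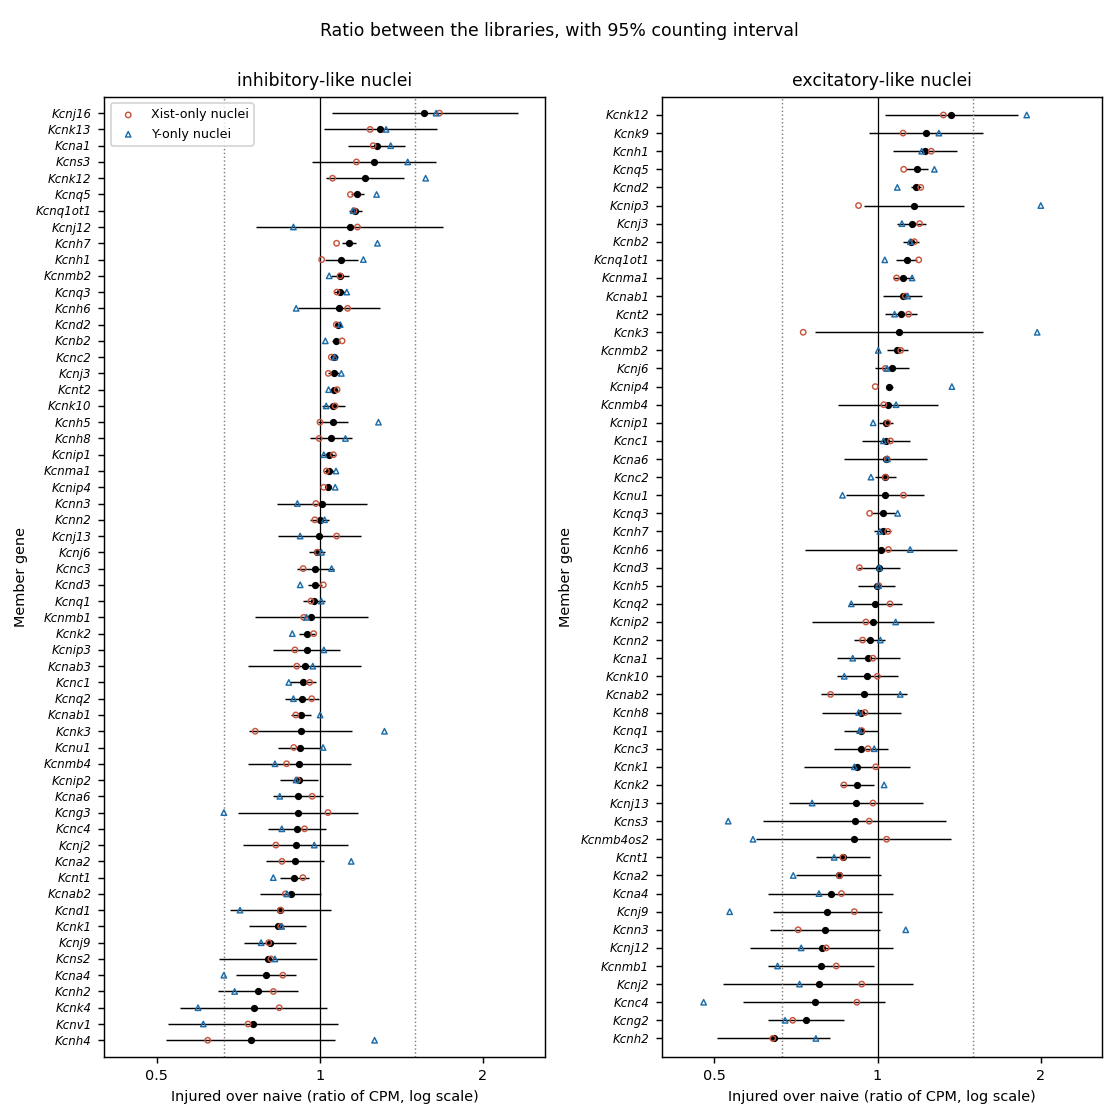
Injured over naive ratio of CPM (x axis, log scale) for 58 genes in inhibitory-like and 52 in excitatory-like nuclei (y axis), with 95% counting intervals; red circles use nuclei with Xist UMIs only, blue triangles nuclei with Y-linked UMIs only, and dotted lines mark 1.5-fold. Only Kcnj16 (1.56) and Kcnh2 (0.643) lie past 1.5-fold in all nuclei, and the circle and the triangle are far apart for several genes with few UMIs. They also differ for some genes with many UMIs. Kcnip4 in excitatory-like nuclei, with 70735 UMIs, is at 0.990 (0.973 to 1.01) for the circle and 1.37 (1.33 to 1.41) for the triangle.

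The ratios went with gene length, as those of all genes did. Of the members over 100 kb, 17 of 23 were above 1 in inhibitory-like and 16 of 23 in excitatory-like nuclei. Of those up to 100 kb, 8 of 36 and 11 of 30 were. Their median log2 was 0.08 against -0.13 in inhibitory-like and 0.05 against -0.09 in excitatory-like nuclei; over all genes the same split gave 0.05 against -0.11 and 0.04 against -0.11. Relative to genes of like length, the medians of the longer and shorter members were 0.00 and -0.04 in inhibitory-like and -0.03 and 0.04 in excitatory-like nuclei.

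By family, the lowest medians in inhibitory-like nuclei were -0.23 (log2) for 4 silent subunits and -0.14 for 4 Kcna genes, of which 3 in each were below 1. All 3 Kcnab genes were below 1, from 0.883 to 0.937, where 69.4% of all genes were below 1 in this class. In excitatory-like nuclei both silent subunits compared were below 1, and of 6 Kcnj genes 4 were, with a median of -0.22, where 65.8% of all genes were below 1; with so few genes in a family, these counts are near that background. Of the G protein-gated subunits, Kcnj9 had a ratio of 0.810 (0.725 to 0.905) in inhibitory-like and 0.808 (0.641 to 1.02) in excitatory-like nuclei. Kcnj3 had 1.06 (1.04 to 1.09) and 1.16 (1.09 to 1.23), and Kcnj6 0.987 (0.953 to 1.02) and 1.06 (0.990 to 1.14). All those ratios were within 1.5-fold. Kcnj9 is 8.82 kb long, Kcnj3 162 kb and Kcnj6 249 kb. Relative to genes of like length, log2 ratios in excitatory-like nuclei were -0.14 for Kcnj9, 0.21 for Kcnj3 and 0.01 for Kcnj6. Without that step they were -0.31, 0.21 and 0.09. The part of gene length in these ratios was not tested.

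In CSF-contacting-like nuclei only 16 of the 79 genes had 100 UMIs. Of these, 2 were at least 1.5-fold higher in the injured library and 0 lower, where 2.8% and 2.73% of all genes were: Kcnd3 with 138 and 226 CPM, 1.63 times (1.17 to 2.28), and Kcnc2 with 126 and 204 CPM, 1.62 times (1.14 to 2.30). The interval lay above 1 for 5 and below 1 for 0 of the 16, where it did so for 10% and 4.58% of all genes. The UMIs were unevenly spread: 1 injured nucleus held 26 of the 72 Kcnd3 UMIs, and 1 held 38 of the 65 Kcnc2 UMIs, which came from 9 of 48 injured nuclei, against 25 of 106 naive ones. Neither held in both parts of the pools. Among nuclei with Xist UMIs only, the ratios were 0.964 (0.552 to 1.62) for Kcnd3 and 0.417 (0.160 to 0.922) for Kcnc2. Among nuclei with Y-linked UMIs only, they were 1.17 (0.397 to 4.67) and 4.25 (0.680 to 176). Kcnc2 stood at 1336 and 1419 CPM in inhibitory-like nuclei, and the part of RNA from other nuclei in these 48 injured ones was not tested.

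Genes known to work with these channels were read from a list of 44, of which 42 were in the matrix. In inhibitory-like nuclei 40 were compared, 15 above and 25 below 1, with a median log2 of -0.06. Of all genes compared in this class 69.4% were below 1, with a median of -0.08, so the partner genes were near that background. By 1.5-fold 1 was higher and 0 were lower, where 0.394% and 2.16% of all genes were. Dpp10 and Dpp6, which join Kcnd pores, were among the highest, at 1.19 (1.16 to 1.23) and 1.16 (1.14 to 1.18). The lowest were Amigo1, a Kcnb partner, at 0.726, Lgi2, a secreted protein of Kcna complexes, at 0.758, and Atp1b2, a pump subunit, at 0.763. In excitatory-like nuclei 35 were compared, 12 above and 23 below 1, with a median of -0.05. Of all genes compared there 65.8% were below 1, with a median of -0.07, and 0.172% were at least 1.5-fold higher and 2.51% lower. By 1.5-fold 0 were higher and 1 lower, Hcn3, a pacemaker cation channel, with 16.7 and 10.4 CPM, 0.621 times (0.455 to 0.844). Gng3, a G protein subunit, was at 0.753 and Atp1b2 at 0.705, and the highest were Dpp10 and Gng2 at 1.12 each and Cntnap2, which gathers Kcna channels on axons, at 1.10.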

How the data were processed

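Single-nucleus 3' RNA libraries (10x Genomics, v3 chemistry) were processed on build mm10; the submitters' processing notes name Cell Ranger 3.0.2 and, without a version, Seurat. The authors deposited raw UMI counts per gene and nucleus, which served for all main values. They also deposited normalized values, used only for an alternative: each count was divided by its nucleus total, multiplied by 10000 and increased by 1, and the natural log taken, which the values matched to 5.3e-15. The annotation, strand, nucleus filters and handling of intronic reads are not given in the sources consulted. No gene was counted in fewer than 4 nuclei, and the sparsest nucleus had 514 genes. No nucleus was removed.

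The libraries were pooled and clustered in scanpy 1.11.5 (leidenalg 0.10.2; 2000 variable genes, 30 components, 15 neighbours, resolution 1). Names came from marker lists, needed 3 detected markers, and for neurons, required transmitter genes of the named kind to exceed the other by 10 times (inhibitory) or 4 times (excitatory). Those ratios were set with the data seen. Clusters holding markers of several classes were clustered again or left unnamed. Doublets were kept; Scrublet called 106 naive (2.61%) and 7 injured (0.197%) nuclei, so it did not work in the injured library.

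Counts were summed per class and library and scaled to CPM. Intervals (95%) were exact Poisson for levels, Clopper-Pearson for shares and conditional binomial for ratios (scipy 1.17.1), with a floor of 3 counts for 0; they also leave out differences between nuclei. The ratio code was tested on simulated data. Gene positions and lengths are from GENCODE M21; all 79 symbols matched. Named genes were the most counted of each family; all past 1.5-fold between libraries with the 5 highest and 5 lowest ratios per neuron class at 100 UMIs or more; the 8 highest and 8 lowest excitatory to inhibitory ratios; all above both neuron classes in a glia-like or CSF-contacting-like class; the 10 with the highest ratio of top to median cluster and 1 top cluster in both libraries; those next to the limit of 20 UMIs; and the 3 highest and 3 lowest partner genes. The genes and lists were chosen with earlier results of these data known. Values of 3 genes that these rules would name are not reported here, and they are left out of the figures; counts include them.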

Additional observations from a re-analysis of the deposited data

Results flagged for a closer look

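Kcnab1, an auxiliary subunit of Kcna channels, went in opposite directions in the neuron classes, with counting intervals on either side of 1. Its injured over naive ratio was 0.923 (0.883 to 0.964) in inhibitory-like nuclei, at 216 and 199 CPM, and 1.11 (1.02 to 1.21) in excitatory-like nuclei, at 163 and 182 CPM. The gene was picked by this rule from these same values, and the share of all genes that met the rule was not counted. The difference between the classes was not tested, since each group was 1 library. Kcnab1 is 269 kb long. Relative to genes of like length, its log2 ratio in excitatory-like nuclei was 0.07 in place of 0.15. Among nuclei with Xist UMIs only the ratios were 0.903 (0.855 to 0.954) and 1.13 (1.02 to 1.24). Among nuclei with Y-linked UMIs only they were 1.001 (0.922 to 1.09) and 1.14 (0.955 to 1.35), and both intervals held 1. Without nuclei with 2 or more glia marker UMIs they were 0.859 (0.808 to 0.912) and 1.09 (0.987 to 1.20), so that the second interval held 1. Kcnab1 was also at 221 and 519 CPM in oligodendrocyte-like nuclei, on 23 and 72 UMIs.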

How the results depend on the processing

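No paired analysis was possible because each group was 1 library with no replicate number; for the same reason no replicate could be left out. The alternatives on unnamed clusters, glia markers, noncoding genes and Kcnip4 were chosen after seeing the data. The named genes were picked for extreme ratios in these same counts, and the alternatives reuse the same nuclei. Kept direction is therefore no independent check. Direction was kept in every alternative for the 16 genes named between neuron classes (239 of 239 values) and the 10 named between libraries in excitatory-like nuclei (170 of 170), and in 167 of 170 values in inhibitory-like nuclei. The exceptions were Kcna1 and Kcns3 with each cluster given the same share of UMIs in both libraries, as above, and Kcnh4 in nuclei with Y-linked UMIs only (log2 0.34). The number past 1.5-fold moved most. In inhibitory-like nuclei the 1 higher gene became 0 with a filter of 300 UMIs, in nuclei with Xist UMIs only, after thinning, with clusters of the same share and without nuclei with glia marker UMIs. The 0 lower genes became 5 with a filter of 20 UMIs, 1 in nuclei with Y-linked UMIs only and 2 with nuclei classed by their own markers. In excitatory-like nuclei the 1 lower gene became 6 with a filter of 20 UMIs, 2 with nuclei classed by their own markers, and 0 with a filter of 300 UMIs, median-ratio scaling, the deposited normalized values, without the 10% of nuclei with most UMIs, in nuclei with Y-linked UMIs only and relative to genes of like length; in nuclei with Y-linked UMIs only 1 gene was higher. The 7 genes higher in glia-like nuclei became 4 in nuclei with Xist UMIs only and 2 after thinning. In nuclei with Xist UMIs only, Kcnj16 fell under the filter of 100 UMIs, while its ratio was as large (1.66). The cause of the other moves was not tested. The summed share (3.04% in inhibitory-like and 1.77% in excitatory-like nuclei of both libraries) became 3.05% and 1.76% without Scrublet doublets, 3.05% in inhibitory-like nuclei without nuclei of both Xist and Y-linked UMIs, 3.14% and 1.71% once the deepest 10% of nuclei were left out, 2.98% and 1.76% in nuclei with Xist UMIs only, 3.20% and 1.79% in nuclei with Y-linked UMIs only, 2.91% and 1.66% with nuclei classed by their own markers, 3.09% and 1.73% after thinning, 2.99% and 1.71% without the noncoding genes and 1.47% and 1.24% without Kcnip4. It was 1.80% in excitatory-like nuclei clustered without potassium channel genes, 1.71% with unnamed excitatory clusters added, and 2.81% in inhibitory-like nuclei without nuclei with glia marker UMIs. Low counts limit the glia-like classes most, where 1 UMI was worth 7.21 to 22.2 CPM in a library.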
